A study of Mus musculus with 6 samples.

Results

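The early growth response genes Egr1, Egr2 and Egr3, the orphan nuclear receptor genes Nr4a1, Nr4a2 and Nr4a3, and the corepressor genes Nab1 and Nab2 were followed in cultured mouse fetal liver macrophages. The 8 genes were taken by symbol from 16111 genes with an identifier, and all 8 had enough counts to be tested, among 11408 tested genes. They were chosen by name, with the differences in counts between the genotypes known from earlier results, so their values in that comparison are a description and carry no test. The libraries came from 3 wild-type (WT) and 3 Ahrr-deficient (AhRR-/-) mice of strain C57BL/6 RCC. Both groups came from fetuses of age E13.5. The cells grew for 5 weeks with 2% GM-CSF, a cytokine that supports macrophages, and those that did not adhere were sequenced. The kind of Ahrr allele and the sex of the fetuses are not given in the sources used here. Ahrr encodes the repressor of the aryl hydrocarbon receptor, and the comparison asks which transcripts differ when that repressor is lacking.

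Egr and Nr4a genes belong to the immediate-early genes, whose transcription starts within minutes of a signal and needs no new protein. Signals through the ERK kinases and through cyclic AMP reach these genes by way of serum response factor, ternary complex factors and CREB. Egr proteins bind GC-rich sites with zinc fingers, and Nab1 and Nab2 bind Egr proteins and repress their activity. Nr4a proteins are nuclear receptors that act without a known ligand. In the lung, Egr2 is known as a regulator of alveolar macrophages, the macrophage type that depends on GM-CSF.

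The sequences before the start sites of the Nr4a genes are shown because these genes include the members that were lower in Ahrr-deficient cells, and because the cyclic AMP response element (CRE) is their textbook input. Capitals mark the CRE core TGACG on either strand, so that a core on the other strand reads CGTCA. Sequences are RefSeq promoter windows on GRCm38.p6, printed 5′ to 3′ on the strand of the gene. The Nr4a1 window lies at chr15:101266596-101266845 on the plus strand and the Nr4a2 window at chr2:57124004-57124253 on the minus strand. For Nr4a3 only the 98 bases at chr4:48045055-48045152 on the plus strand are printed, which end before the first annotated exon.
Nr4a1: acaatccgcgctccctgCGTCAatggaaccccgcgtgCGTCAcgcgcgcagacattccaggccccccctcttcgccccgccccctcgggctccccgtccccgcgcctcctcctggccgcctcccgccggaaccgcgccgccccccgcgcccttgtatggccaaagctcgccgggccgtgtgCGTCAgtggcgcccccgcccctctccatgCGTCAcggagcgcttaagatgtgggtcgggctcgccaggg
Nr4a2: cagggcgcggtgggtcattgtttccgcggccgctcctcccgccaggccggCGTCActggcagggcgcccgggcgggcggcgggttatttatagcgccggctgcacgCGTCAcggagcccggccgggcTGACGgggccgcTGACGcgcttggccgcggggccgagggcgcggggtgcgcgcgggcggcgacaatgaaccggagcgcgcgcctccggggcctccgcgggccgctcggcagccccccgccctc
Nr4a3: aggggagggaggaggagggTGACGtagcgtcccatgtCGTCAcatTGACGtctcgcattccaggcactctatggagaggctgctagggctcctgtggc

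Each of these 3 windows of 250 bases held 4 CRE cores, of which 3 lie in the printed stretch for Nr4a3. At least 1 core was found in 17.8% of the 32851 RefSeq windows of that length, and at least 4 cores in 0.137% of them. These shares are not matched for base content, and the Nr4a1 and Nr4a2 windows are 74.4% and 80% G or C. Windows of 5 of the 6 members used here held at least 1 core, Egr2 and Nab1 among them. A core was thus not limited to the Nr4a genes. The count of 4 was chosen after the matches were seen. The full element TGACGTCA was in none of the windows of these 6 members, with 10 windows in all, and 1.55% of all windows hold it. The core of the xenobiotic response element bound by the aryl hydrocarbon receptor, searched as TNGCGTG on both strands, was also in none of them, against 4.10% of all windows. The windows of Egr1 and Egr3 were not used here, so the counts of members with a site do not cover these 2 genes.

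A 30-base stretch is shown for Egr2 and for Nab1 because the first holds a site of the signalling input described above and the second holds sites of the Egr proteins that Nab1 binds. The Egr2 stretch, chr10:67537787-67537816 on the plus strand, holds a CArG box, the site of serum response factor. Such a box was in 1.47% of all windows and in the windows of 1 of the 6 members used. The Nab1 stretch, chr1:52500538-52500567 on the minus strand, holds 1 of 3 matches in its window to the Egr site GCGNGGGCG. That site was in 4.70% of all windows and in those of 3 members used, Nab1, Nr4a1 and Nr4a2. The site is itself mostly G and C, and this share is not matched for base content either, so nothing is read from it. Matches are letters in a window, not measured binding.
Egr2: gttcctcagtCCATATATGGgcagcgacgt
Nab1: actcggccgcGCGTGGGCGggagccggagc

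Library totals ranged from 3556106 to 41668336 counts, an 11.7-fold range, with the shallowest and the deepest library both in the Ahrr-deficient group. Levels are given as counts per 1000000 counts of the library (CPM), and 3 counts, taken as the floor, equal 0.0720 to 0.844 CPM. Printed CPM values are not adjusted by the scaling factors of the edgeR fit (TMM), which ran from 0.904 to 1.04. Where log2 CPM is named below, for spread and profiles, these factors were applied. Ahrr itself lay between 4.29 and 5.32 CPM in the WT libraries and between 1.21 and 2.57 CPM in the Ahrr-deficient libraries (log2 fold change -1.21 with an SE of 0.26 and an edgeR adjusted p of 0.0151), so reads of the targeted gene remained. All 9 macrophage markers were present, with summed levels of 22940.5 to 28369.2 CPM in WT and 17061.3 to 24520.9 CPM in Ahrr-deficient libraries. Of these, Mrc1 was called higher, Csf1r and Cd14 were called lower. The 5 T-cell, 3 B-cell and 4 mast-cell or basophil markers were not among the genes with an identifier. Markers of the other 8 cell types looked for summed to at most 9.68 CPM in any library, a value held by the stromal gene Pdgfra in WT replicate 2. The megakaryocyte marker Itga2b was called lower, with 2.698 to 3.01 CPM in WT and 1.21 to 1.97 CPM in Ahrr-deficient libraries, while Pf4 was not among the genes with an identifier. The part of these marker levels in the results below was not tested. Bulk RNA cannot separate fewer cells of a kind from less RNA per cell, and this holds for every value below.

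Of the 8 genes, 3 were past the threshold of an edgeR adjusted p under 0.05 over all tested genes. Egr3 was higher and Nr4a1 and Nr4a2 were lower in Ahrr-deficient cells. These 3 differed at least 2-fold, and 4.51% of all tested genes were both called and at least 2-fold different. Of all tested genes 19.6% were called, 9.62% higher and 9.95% lower, and nothing is read from the comparison with the 8 genes, which were chosen with these results known. The median log2 fold change of the 8 genes was -0.39, against 0.0076 over all tested genes, with 6 values below 0 and 2 above it. Groups did not overlap in CPM for 4 of the 8 genes, Egr2, Egr3, Nr4a1 and Nr4a2, and for 36.6% of all tested genes. Of the 4, 2 were higher and 2 lower in Ahrr-deficient libraries, against 23.9% and 12.8% of all tested genes. For Egr2 the lack of overlap depended on the scaling, as given below.

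**Figure D1:**
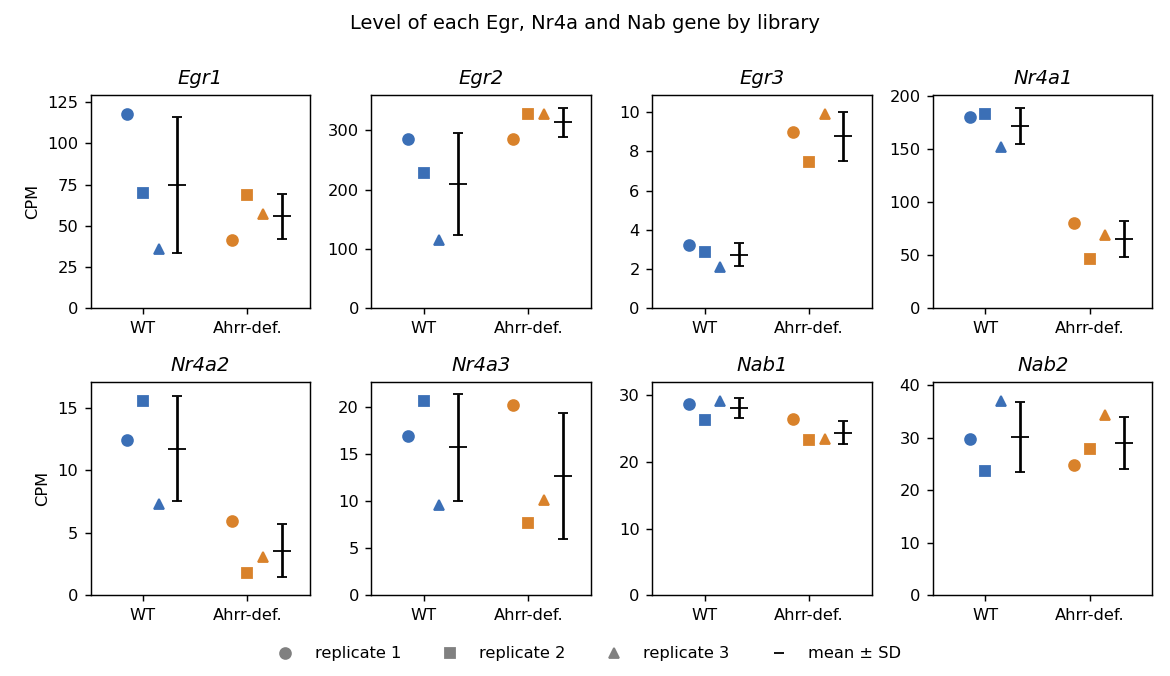
Level of each gene in CPM on a linear axis that starts at 0, with 1 point for each of the 3 WT (blue) and 3 Ahrr-deficient (orange) libraries and the mean ± SD of each group (n = 3). The groups lie apart for Egr3, Nr4a1 and Nr4a2, and WT replicate 3 is the lowest WT library for 6 of the 8 genes.

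Egr1 (ENSMUSG00000038418.7, chromosome 18, 34859823 to 34864984 on GRCm38, plus strand) encodes the founding zinc-finger activator of the family. It stood at 118, 70.0 and 36.0 CPM in WT replicates 1, 2 and 3, and at 41.3, 68.7 and 57.0 CPM in Ahrr-deficient replicates 1, 2 and 3. The WT values spanned the whole range of the Ahrr-deficient values, so the groups overlapped. The means were 74.6 ± 41.1 CPM in WT and 55.7 ± 13.7 CPM in Ahrr-deficient cells (SD, n = 3), and the log2 fold change was -0.49 (SE 0.35). This value rested on single libraries: it was -0.019 without WT replicate 1 and -0.84 without WT replicate 3, and it was past the threshold in neither case.

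Egr2 (ENSMUSG00000037868.15, chromosome 10, 67535475 to 67542188, plus strand) was the most abundant of the 8 genes per length in both groups. It had 284.9, 229 and 116 CPM in WT and 286, 328 and 328 CPM in Ahrr-deficient libraries. The lowest Ahrr-deficient value, 285.7 CPM, was just above the highest WT value of 284.9 CPM. This order depended on the scaling. The counts behind these values, 1016 and 6250, have size factors of 0.342 and 2.07 in the deposited signal. Divided by these factors, they stand in the reverse order, so on that scale the groups overlapped. The means were 210 ± 86 and 314 ± 24 CPM (SD, n = 3). With an SE of 0.28, the log2 fold change was 0.49 and not past the threshold. Without WT replicate 3 the log2 fold change was 0.18, and without WT replicate 1 it was 0.74.

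Egr3 (ENSMUSG00000033730.4, chromosome 14, 70077203 to 70082614, plus strand) was the least abundant Egr gene. Its counts were 71, 18 and 15 in WT and 32, 310 and 98 in Ahrr-deficient libraries. These equal 3.24, 2.86 and 2.10 CPM in WT and 8.999, 7.44 and 9.91 CPM in Ahrr-deficient libraries. Every Ahrr-deficient library was above every WT library, and the means differed by 3.22-fold, at 2.73 ± 0.58 and 8.78 ± 1.25 CPM (SD, n = 3). The log2 fold change was 1.52 (SE 0.22), and it stayed between 1.37 and 1.76 over 16 other settings, past the threshold in all 16.

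Nr4a1 (ENSMUSG00000023034.6, chromosome 15, 101254269 to 101274795, plus strand), also named Nur77, was the most abundant of the nuclear receptor genes. It had 180, 183 and 152 CPM in WT and 80.7, 46.6 and 68.7 CPM in Ahrr-deficient libraries. The groups lay apart, with means of 172 ± 17 and 65.3 ± 17.3 CPM (SD, n = 3), 2.63-fold lower in Ahrr-deficient cells. On the log2 scale the difference was -1.51 (SE 0.20) and lay between -1.70 and -1.29 over the 16 other settings, past the threshold in all of them.

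Nr4a2 (ENSMUSG00000026826.13, chromosome 2, 57106830 to 57124003, minus strand), also named Nurr1, had counts of 272, 98 and 52 in WT and 21, 73 and 30 in Ahrr-deficient libraries. In CPM these were 12.4, 15.6 and 7.29 in WT and 5.91, 1.75 and 3.03 in Ahrr-deficient libraries. No value of one group reached the other, although WT replicate 3 and Ahrr-deficient replicate 1 came close. The means were 11.7 ± 4.2 and 3.56 ± 2.13 CPM (SD, n = 3). The log2 fold change of -2.23 (SE 0.43) was the largest of the 8 in size, and it was above that of 99.4% of tested genes in size. Its call depended on single libraries, since it was just short of the threshold without WT replicate 1 (-2.14) and without Ahrr-deficient replicate 2 (-1.65).

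Nr4a3 (ENSMUSG00000028341.9, chromosome 4, 48045153 to 48086447, plus strand), also named Nor1, had 16.96, 20.6 and 9.53 CPM in WT and 20.2, 7.63 and 10.1 CPM in Ahrr-deficient libraries. The groups overlapped, because Ahrr-deficient replicate 1 was at the level of the higher WT libraries. The means were 15.7 ± 5.7 and 12.7 ± 6.7 CPM (SD, n = 3), and the log2 fold change was -0.63 (SE 0.38). Without Ahrr-deficient replicate 1 it was -0.98 and past the threshold, and after thinning all libraries to the smallest total it was -0.19.

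Nab1 (ENSMUSG00000002881.14, chromosome 1, 52457294 to 52500679, minus strand) was the steadiest of the 8 genes by SD relative to mean CPM. This was 5.33% in WT and 7.23% in Ahrr-deficient libraries. By SD of log2 CPM, which includes the TMM factors, Egr2 was steadier than Nab1 among Ahrr-deficient libraries (0.095 against 0.12). Nab1 had 28.7, 26.3 and 29.1 CPM in WT and 26.4, 23.3 and 23.5 CPM in Ahrr-deficient libraries. The groups overlapped narrowly, with WT replicate 2 at 26.35 and Ahrr-deficient replicate 1 at 26.43 CPM. This overlap depended on the scaling. With counts divided by the size factors of the deposited signal, every Ahrr-deficient library lay below every WT library. The means were 28.1 ± 1.5 and 24.4 ± 1.8 CPM (SD, n = 3). With an SE of 0.10, the log2 fold change was -0.30, not past the threshold in the reported fit and past it in 5 of the 16 other settings.

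Nab2 (ENSMUSG00000025402.12, chromosome 10, 127660918 to 127668568, minus strand) had 29.7, 23.6 and 36.99 CPM in WT and 24.7, 27.9 and 34.4 CPM in Ahrr-deficient libraries. The Ahrr-deficient values lay inside the WT range. The means were 30.1 ± 6.7 and 29.0 ± 4.9 CPM (SD, n = 3), and the log2 fold change was -0.11 (SE 0.15) and changed sign in 4 of the 16 other settings. Exons of Gm16229, Nemp1 and Stat6 overlap those of Nab2 on the opposite strand, and the kit used does not mark strand, so some of its reads may belong to those genes. No exon of the other 7 genes overlaps another annotated gene.

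**Figure D2:**
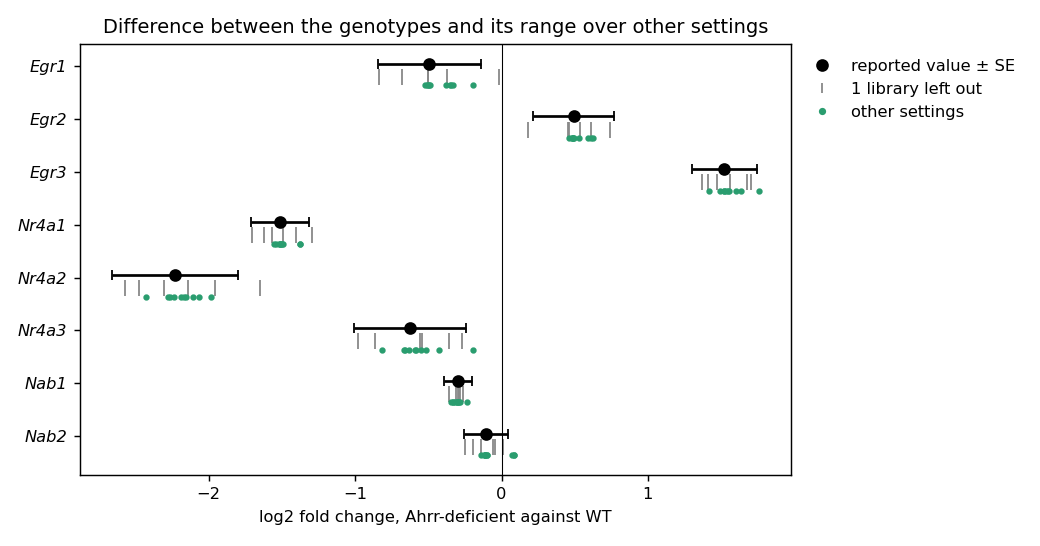
Log2 fold change of each gene, Ahrr-deficient against WT, as the reported value ± SE (black), the 6 fits that each left out 1 library (grey ticks) and 10 other settings (green). Egr3 stays above 0 and Nr4a1 and Nr4a2 stay below -1 in every fit, while the values of Nab2 fall on both sides of 0.

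Levels of different genes were compared per length, as CPM per kilobase of merged exons (RPKM). In WT the order was Egr2 at 61.7 ± 25.3, Nr4a1 at 48.97 ± 4.88, Egr1 at 16.6 ± 9.2 and Nab2 at 10.2 ± 2.3 RPKM (SD, n = 3). Below them came Nab1 at 6.84 ± 0.36, Nr4a2 at 2.89 ± 1.03, Nr4a3 at 2.62 ± 0.94 and Egr3 at 0.620 ± 0.131 RPKM. The ranges of Egr2 and Nr4a1 overlapped, as did those of Egr1 and Nab2 and those of Nr4a2 and Nr4a3. In Ahrr-deficient cells Egr2 stood at 92.3 ± 7.2 RPKM, apart from Nr4a1 at 18.6 ± 4.9 RPKM. Egr1 at 12.4 ± 3.1 RPKM overlapped both Nr4a1 and Nab2, the latter at 9.87 ± 1.67 RPKM, and Nab1 stood at 5.95 ± 0.43 RPKM. At the low end Nr4a3 had 2.12 ± 1.12, Egr3 1.99 ± 0.28 and Nr4a2 0.878 ± 0.524 RPKM, so that Egr3 was no longer the lowest of the 8.

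The makeup of each family was taken as each gene's share of the family's summed RPKM and is given without a test. Egr1 made up 18.7% to 23.7% of the summed Egr RPKM in WT libraries and 9.67% to 13.4995% in Ahrr-deficient libraries. The ratio of Egr2 to Egr1 was 3.19, 4.31 and 4.24 in WT and 9.12, 6.30 and 7.58 in Ahrr-deficient replicates 1, 2 and 3, with no overlap. Within WT this ratio varied little although both genes varied widely: the summed Egr level was 111 RPKM in replicate 1 and 42.6 RPKM in replicate 3. The share of Egr3 was 0.663% to 1.121% in WT and 1.49% to 2.14% in Ahrr-deficient libraries.

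Nr4a1 made up 87.8% to 92.8% of the summed Nr4a RPKM in WT and 82.6% to 88.9% in Ahrr-deficient libraries. The summed level was 57.2, 59.5 and 46.7 RPKM in WT and 27.8, 15.0 and 22.0 RPKM in Ahrr-deficient replicates 1, 2 and 3. The share of Nr4a3 was 3.40% to 5.79% in WT and 7.68% to 12.1% in Ahrr-deficient libraries, again with no overlap. Nr4a3 itself was not higher, at 2.62 ± 0.94 RPKM in WT and 2.12 ± 1.12 RPKM in Ahrr-deficient libraries. Its higher share thus goes with the lower summed level. The ratio of Egr2 to its corepressor Nab2 was 8.30, 8.36 and 2.71 in WT and 9.99, 10.2 and 8.25 in Ahrr-deficient libraries, so WT replicate 3 stood apart from the other 5 libraries. The summed Nab level, at 14.5 to 19.7 RPKM in WT and 14.9 to 17.4 RPKM in Ahrr-deficient libraries, overlapped between the groups.

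**Figure D3:**
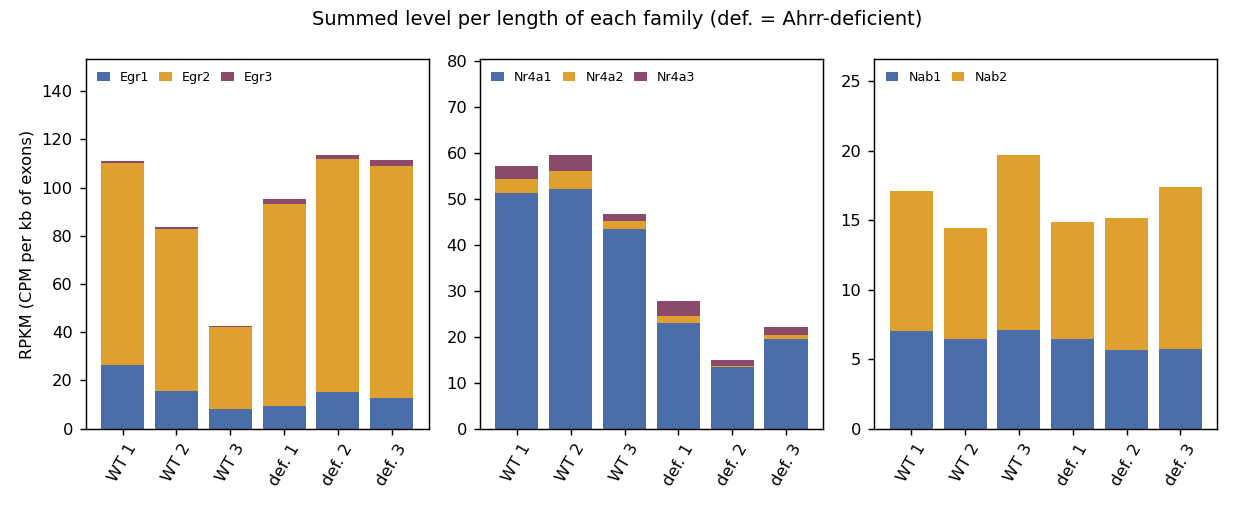
Level per length in RPKM of each gene, stacked by family, for the 3 WT and 3 Ahrr-deficient libraries on linear axes that start at 0 and differ in scale. Egr2 makes up most of the Egr level and Nr4a1 most of the Nr4a level in every library, and the summed Nr4a level is at most 27.8 RPKM in Ahrr-deficient libraries and at least 46.7 RPKM in WT.

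The immediate-early members varied more within a group than most genes did. Spread was taken on log2 CPM with the TMM factors and a prior count of 2, so it differs from that of the printed CPM. The SD of log2 CPM among WT libraries was 0.88 for Egr1, 0.72 for Egr2, 0.65 for Nr4a3 and 0.63 for Nr4a2. These values exceeded those of 99.1% or more of the 10034 tested genes with a mean of at least 50 counts, whose median SD was 0.0996. Nr4a1 was steadier in WT, with an SD of 0.22. Nab1 had an SD of 0.016, below that of all but 2.41% of genes. Among Ahrr-deficient libraries Nr4a2 (0.86) and Nr4a3 (0.74) again ranked above 98.5% or more of the genes, while Egr2 had an SD of 0.095, under the median of 0.17.

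WT replicate 3 was the lowest WT library for 6 of the 8 genes, namely Egr1, Egr2, Egr3, Nr4a1, Nr4a2 and Nr4a3, and it was the lowest for 18.3% of all tested genes. The remaining pair, Nab1 and Nab2, was lowest in WT replicate 2, which held the lowest WT value for 69.1% of tested genes. These ranks are of CPM without the TMM factors and depend on that scale. With counts divided by the size factors of the deposited signal, WT replicate 2 was the highest WT library for Nab1. On that scale it stayed the lowest for Nab2, and WT replicate 3 stayed the lowest for the Egr and Nr4a genes. In the Ahrr-deficient group 5 genes were lowest in replicate 2, against 26.9% of all tested genes. The labels give no batch, date or lane for the libraries.

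For each of the 8 genes the 3 genes with the most similar profile were found among 10026 other genes with a mean of at least 50 counts. Likeness was the root mean square distance of log2 CPM with the TMM factors. Each gene was centred on its own mean over the 6 libraries, so a small value means a close match. Nr4a1 was closest to Thbd (0.14), which encodes thrombomodulin, to the lipopolysaccharide co-receptor gene Cd14 (0.15) and to Pde4b (0.16), which encodes an enzyme that breaks down cyclic AMP. Cd14, for instance, had 919, 1009 and 786 CPM in WT and 411, 231 and 271 CPM in Ahrr-deficient libraries. Nr4a2 was closest to Col23a1 (0.17), Lox (0.27) and Pik3ip1 (0.28), and Nr4a3 to Myh10 (0.24), Gm43328 (0.25) and the transcription factor gene Foxo3 (0.26).

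Egr2 was closest to the orphan receptor gene Gpr171 (0.11), which had 17.6, 12.7 and 5.74 CPM in WT and 14.3, 17.4 and 16.7 CPM in Ahrr-deficient libraries and so shared its low value in WT replicate 3. Adamtsl5 (0.20) and AU041133 (0.24) came next. Egr3 was closest to the sodium and proton exchanger gene Slc9a4 (0.24), the integrin gene Itga1 (0.27) and the costimulatory ligand gene Cd80 (0.29). Cd80 had 13.9, 13.97 and 10.9 CPM in WT and 31.8, 30.7 and 26.9 CPM in Ahrr-deficient libraries. The matches of Egr1 were the loosest, with Atp9a at 0.27, Cspg4 at 0.31 and Cep170b at 0.32. Nab1 was matched closely by Birc2 (0.021), Chd6 (0.025) and Evi2a (0.027), and Nab2 by Haus7 (0.039), Lbr (0.057) and Map3k11 (0.059). Among the 8 genes themselves the closest pairs were Nab1 with Nab2 (0.25) and Nr4a1 with Nr4a2 (0.40), and the most distant pair was Nr4a2 with Egr3 (1.78).

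The genes that carry signals to the Egr and Nr4a genes were examined as a list of 28, of which 27 were tested. Of these 3 were called higher and 6 lower in Ahrr-deficient cells, and 18 were not called, with a median log2 fold change of 0.040. That is 33.3% called, against 19.6% of all tested genes. The list was chosen with earlier results of these data known, so nothing is read from this comparison. Called higher were Rps6ka3, the gene of the ERK-activated kinase RSK2, at 0.68 on the log2 scale (SE 0.09, edgeR adjusted p 0.00336), the ternary complex factor gene Elk1 (0.34) and the Ras gene Nras (0.24). The falls named by size were those of Csf1r, the receptor gene for CSF-1 (-0.65), the CREB family modulator gene Crem (-0.64), Mkl1, the gene of a coactivator of serum response factor (-0.62, edgeR adjusted p 0.00519), and the adaptor gene Grb2 (-0.33). Mkl1 had 127, 114 and 123 CPM in WT and 87.5, 73.9 and 90.4 CPM in Ahrr-deficient libraries. Of these 7 genes, Rps6ka3 and Mkl1 were past the threshold in all fits that left out 1 library, and each of the others was not in 4 or more of the 6. The count of 9 was 2 without WT replicate 1, WT replicate 2, Ahrr-deficient replicate 2 or Ahrr-deficient replicate 3, 4 without WT replicate 3 and 14 without Ahrr-deficient replicate 1.

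Of 42 other immediate-early genes 35 were tested, and 20 of them were called, 6 higher and 14 lower, with a median log2 fold change of -0.32. The share called was 57.1%, against 19.6% over all tested genes, for which 9.62% were higher and 9.95% lower. Nothing is read from this difference, because this list too was chosen with earlier results of these data known. The largest falls were those of the G-protein regulator gene Rgs1 (-2.72, SE 0.36), the AP-1 subunit gene Fos (-2.48, SE 0.16), the antiproliferative gene Btg2 (-1.86, SE 0.18) and Zfp36 (-1.67, SE 0.20), whose protein speeds the decay of inflammatory mRNAs. Their edgeR adjusted p-values lay between 3.08e-04 and 0.00286. Fos had 326, 326 and 415 CPM in WT and 84.6, 59.4 and 59.97 CPM in Ahrr-deficient libraries. WT replicate 3 thus held its highest value, whereas the same library was the lowest in WT for all 6 Egr and Nr4a genes. Over this list WT replicate 3 was the lowest WT library for 10 of the 35 genes.

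Other immediate-early genes moved the opposite way. Myc, a growth regulator, rose by 2.37 on the log2 scale (SE 0.27) with an edgeR adjusted p of 0.00184, from 26.8, 17.1 and 19.1 CPM in WT to 72.6, 111 and 165 CPM in Ahrr-deficient libraries. Phlda1 (0.77), the zinc-finger factor gene Klf4 (0.68) and Dusp6, the gene of an ERK phosphatase (0.67), were also called higher. The calls of Phlda1 and Dusp6 were lost in 5 of the 6 fits that left out 1 library. The count of 20 was 13 without Ahrr-deficient replicate 2.

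The proteins with which Nab and Nr4a proteins act, such as subunits of the NuRD and CoREST complexes and retinoid X receptors, gave 3 calls among 15 tested genes, 1 higher and 2 lower, with a median log2 fold change of 0.058. Their share of 20.0% is near the 19.6% of all tested genes and is no result about the list. Rcor1, the gene of CoREST, was higher (0.53, SE 0.09), while Mta3 (-0.41) and the receptor gene Rxrb (-0.38) were lower. The latter 2 calls were lost in at least 4 of the 6 fits without 1 library, and the count of 3 was 1 without any of the WT replicates or Ahrr-deficient replicate 2. Of 15 reported Egr targets 13 were tested, with 1 higher, 2 lower and a median of -0.11. The 23.1% called is likewise near the 19.6% of all tested genes. The protease gene Plau was higher (2.10, SE 0.35, edgeR adjusted p 0.00634). The growth factor gene Vegfa was lower (-1.46, SE 0.23). The count of 3 was 6 without Ahrr-deficient replicate 1.

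Because Egr2 is known for its place in alveolar macrophages, 29 genes of that cell type were listed, of which 25 were tested. Of these 8 were called higher and 4 lower, with a median log2 fold change of 0.28. The other 13 were not called, among them Siglecf, Chil3, Marco, Fabp4 and Ear2. The share called was 48%, against 19.6% of all tested genes. As with the other lists, the choice was made with earlier results known, so nothing is read from these shares. The rises named by size were those of Car4, a carbonic anhydrase gene (3.10, SE 0.51), Spp1, the osteopontin gene (1.94, SE 0.42), the integrin gene Itgax (1.70, SE 0.15) and the transcription factor gene Bhlhe40 (1.41, SE 0.16). The falls were those of Ear1 (-1.44), Krt19 (-1.40), the lipid droplet gene Cidec (-1.34) and the fatty acid binding protein gene Fabp5 (-0.67). Itgax had 57.7, 49.4 and 46.9 CPM in WT and 143, 218 and 166 CPM in Ahrr-deficient libraries. Ear1 belongs to a family of near-identical ribonuclease genes, so its value is uncertain. Cidec and Ear1 were also low in Ahrr-deficient libraries, at 0.809 to 1.12 and 0.888 to 1.69 CPM. In Ahrr-deficient replicate 1 they had 1.12 and 1.69 CPM, where the floor was 0.844 CPM. The count of 12 was 7 without WT replicate 1. Spp1 lost its call without WT replicate 1 or WT replicate 3, and its value was 1.26 without Ahrr-deficient replicate 2. Cidec lost its call without WT replicate 1 or Ahrr-deficient replicate 2, and Ear1 without WT replicate 2, WT replicate 3 or Ahrr-deficient replicate 2.

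**Figure D4:**
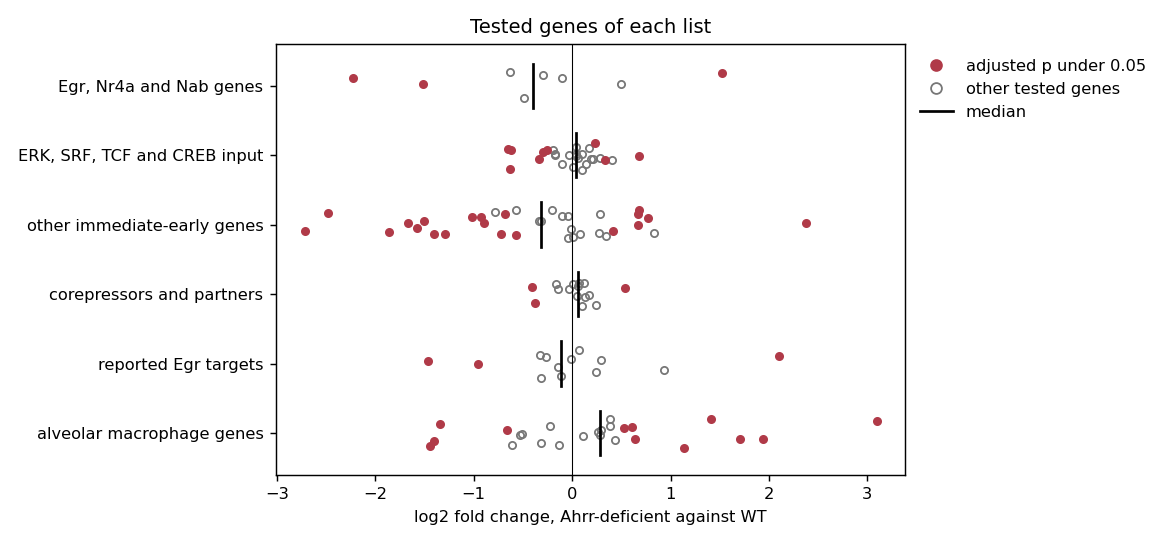
Log2 fold change, Ahrr-deficient against WT, of the 8 genes and of the tested genes of each list, with filled points for an edgeR adjusted p under 0.05 and a bar at the median. The other immediate-early genes hold values from -2.72 to 2.37, with 14 of 35 called lower and 6 called higher.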

How the data were processed

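RNA of 6 cultures was sequenced from libraries made from 100 ng of RNA, as single reads of 75 bp, per the labels' protocols. The authors deposited raw counts per gene for 53465 features without identifiers, and a normalized signal with identifiers for 16111 genes. The submitters' processing notes name fastp 0.20.0, STAR 2.7.10b, DESeq2 1.40.2 and the mm10 build. The counting program is not given in the sources used here. Each deposited signal was a whole number of reads divided by a size factor (100% of values, tolerance 1e-06), and the recovered reads equalled the raw counts of features with a total of at least 10. Features without an identifier held 0.0232% to 0.0511% of a library and were kept in its total. Groups and replicate numbers come from the sample titles, and the labels number a mouse for each library.

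Counts were tested with edgeR 4.0.16 (quasi-likelihood, TMM, filterByExpr, genotype as the only term) in R 4.3.3, two-sided, with Benjamini-Hochberg adjustment over 11408 genes, and checked on simulated data. The alternatives were RLE and upper-quartile scaling, DESeq2 1.42.0, limma-voom (limma 3.58.1), no filter, only genes whose mean reached 50 counts, thinning, the replicate block, each library left out, a prior count of 0.5 in place of 2 (for log2 levels and profiles only) and, chosen after seeing the data, GC offsets with and without the block. Gene models are GENCODE mouse release 21 (GRCm38). The members and lists were chosen with earlier results of these data known. Beside the 8 genes, called list genes were named by the largest change, up to 4 per list and direction, and 3 nearest profiles per member. One called gene that this rule names is not reported here. Egr4 was listed for naming but was not among the genes with identifiers. Floors cover counting error only. The SEs come from the edgeR fit, which includes variation between libraries.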

Additional observations from a re-analysis of the deposited data

How the results depend on the processing

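The number of called genes, 2232 in all, was 1198 after thinning, 1390 with the replicate block, 1275 with GC offsets and the block, and 694 to 3857 with 1 library left out. Same-numbered libraries come from different mice and their deviations correlated at -0.17, 0.071 and 0.13, with 1 of 6 libraries closest to its own number. With 3 pairs these values cannot decide whether libraries of the same number share a batch. The reported fit does not pair them. Of the 8 genes, 3 were called in the reported fit, 6 without a filter on low counts and 2 to 5 with 1 library left out: Nr4a2 lost its call without WT replicate 1 or Ahrr-deficient replicate 2, and 5 were called without Ahrr-deficient replicate 1. Called genes of the signalling list, 9 in all, were 4 after thinning, 3 with the block, 5 with GC offsets and the block, and 2 to 14 with 1 library left out. The corepressor list gave 1 with the block, 1 with GC offsets and the block, and 1 to 3 with 1 library left out. With 1 library left out, other immediate-early genes gave 13 to 25, reported Egr targets 3 to 6 and alveolar macrophage genes 7 to 18. Some values near 0 changed sign. The log2 fold change of Nab2 was 0.087 after thinning, 0.074 with GC offsets, 0.082 with these and the block, and -0.25 to 0.010 with 1 library left out. That of Map3k11 was 0.13 with GC offsets and 0.14 with these and the block. With 1 library left out it was -0.28 to 0.012 for Lbr, -0.019 to 0.74 for Gpr171 and -0.019 to 0.64 for AU041133, with the changed sign without WT replicate 3. That of Atp9a was 0.013 with the block, 0.024 with GC offsets, 0.16 with both and -0.33 to 0.38 with 1 library left out. The cause was not tested. Depth limits Egr3 and Nr4a2 most, with as few as 15 and 21 counts in a library.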
